A study of Homo sapiens with 24 samples.

Results

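MYC and 39 genes of ribosome biogenesis were followed through RNA sequencing of LNCaP cells, a human prostate cancer cell line that responds to androgens, with and without a short hairpin RNA against the deacetylase gene SIRT1. The 40 genes were taken by symbol from a list of MYC, RNA polymerase I genes and nucleolar genes. All 40 were among the 23207 gene rows of the deposited tables, and all 40 passed the low-count filter of every fit. The data comprise 24 libraries in 8 groups of 3.

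In 2 groups, cells with a non-targeting hairpin (NTC, labelled scrambled) or a SIRT1 hairpin (shSIRT1) grew in medium with fetal bovine serum (FBS), which supplies androgens. In the other 6, NTC cells and SIRT1 knockdown cells named 10 had 48 h in FBS medium, then 24 h in charcoal-stripped serum (CSS), which lacks androgens. For a further 24 h they then received vehicle, the androgen dihydrotestosterone (DHT) at 1 nM, or the same dose of DHT together with the antiandrogen drug enzalutamide at 10 µM. All 24 libraries, controls included, come from cells transduced with lentivirus at a multiplicity of infection of 10, selected in 1 µg/ml puromycin and grown in 0.5 µg/ml. The labels call the knockdown lines stable clones and do not say whether shSIRT1 and 10 carry the same hairpin, so loss of SIRT1 and a difference between clones cannot be told apart in any comparison of knockdown with NTC. Nothing in the labels says that replicates came from separate cultures, so the p-values measure the spread between these libraries, which may be technical.

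Ribosomes are assembled in the nucleolus. RNA polymerase I transcribes a long precursor of ribosomal RNA, small nucleolar RNA particles guide its chemical modification, and assembly factors fold and cut it into the small and large subunits. MYC is a transcription factor that binds DNA with its partner MAX, prefers the letters CACGTG (the E-box), and is a well-known activator of ribosome biogenesis genes. Prominent nucleoli are a hallmark of prostate cancer cells under the microscope, and androgen stimulates growth of this lineage.

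Promoter windows show where such letters lie in these genes. The RefSeq table (GRCh38.p14), with 250 bases before and 50 bases after each annotated start, held 32 of the 40 genes. CACGTG, which reads the same on both strands, was present in 16 of these 32 (50%), in 25 of 84 other ribosome biogenesis genes with a window (29.8%) and in 8.77% of all 27305 genes of the table. The related letters CACGCG, searched on both strands, were present in 11 of the 32 (34.4%), in 25 of the 84 other ribosome biogenesis genes (29.8%) and in 13.5% of all genes, and overlaps between the searches were not removed. A match is a string of letters in the reference genome and not a measured binding site. Only 77.4% of the genes tested in CSS could be matched to a window, under the 80% needed for a check over the tested genes, so the shares refer to the table.

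The 250 bases before the start of IPO4, the gene with the lowest fold change in the knockdown with vehicle, hold 1 E-box 29 bases before the start (chr14:24188817-24189066, minus strand). Those of NOP10, the 1 gene of the 40 called higher in the knockdown under DHT, hold 2, at 170 and 11 bases before the start (chr15:34343137-34343386, minus strand). Both are shown because the motif, in capitals, is present in genes with changes of opposite sign.
IPO4: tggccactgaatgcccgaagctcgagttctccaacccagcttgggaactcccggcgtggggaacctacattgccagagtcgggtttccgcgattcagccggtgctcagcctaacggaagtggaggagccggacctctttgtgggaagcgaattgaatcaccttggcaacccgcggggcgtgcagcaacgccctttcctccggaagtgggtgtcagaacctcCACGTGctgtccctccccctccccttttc
NOP10: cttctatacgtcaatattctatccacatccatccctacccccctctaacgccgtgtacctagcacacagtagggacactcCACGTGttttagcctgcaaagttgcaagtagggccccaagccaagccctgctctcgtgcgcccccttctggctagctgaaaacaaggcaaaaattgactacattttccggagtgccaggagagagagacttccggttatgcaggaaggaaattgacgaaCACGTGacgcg

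A further 4 sites of 30 bases, each with the E-box in capitals, are shown because the motif is shared by genes that were called throughout in the main fit and by a gene that was not. LYAR (chr4:4290068-4290097, minus strand), DDX21 (chr10:68956604-68956633, plus strand) and UTP20 (chr12:101280083-101280112, plus strand) were called in each CSS comparison of DHT with vehicle, of enzalutamide with DHT alone and of knockdown with NTC. GNL3 (chr3:52686026-52686055, plus strand) was called in none of these. Some calls were lost in other fits. With only the groups compared, enzalutamide in the knockdown lost DDX21 (edgeR adjusted p = 0.108) and UTP20 (0.0906), and DHT in the knockdown lost DDX21 (0.0693).
LYAR: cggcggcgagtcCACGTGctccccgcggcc
DDX21: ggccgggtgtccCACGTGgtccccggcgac
UTP20: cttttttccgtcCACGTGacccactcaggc
GNL3: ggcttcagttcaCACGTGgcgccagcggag

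Libraries in FBS had 11.9 M to 14.2 M counts and those in CSS 25.2 M to 35.1 M counts. SIRT1 was at 38.3 ± 1.61 CPM (counts scaled to the size of the library, the field's usual unit; mean ± SD, n = 3) in NTC and 8.11 ± 0.788 CPM in shSIRT1 cells in FBS. In CSS with vehicle it was at 57.0 ± 1.295 CPM in NTC and 19.5 ± 1.94 CPM in knockdown 10. KLK3, the androgen-induced gene of prostate-specific antigen, was at 25.0 ± 2.11 CPM with vehicle, 234.5 ± 24.3 CPM with DHT and 38.7 ± 7.0 CPM with DHT plus enzalutamide in NTC cells. Of the luminal prostate markers, KRT8 lay between 357 and 732 TPM (a unit scaled by both transcript length and library size), KRT18 between 398 and 577 TPM, FOLH1 between 1003 and 1602 TPM, HOXB13 between 139 and 217 TPM and EPCAM between 77.0 and 139 TPM over the 24 libraries. Summed levels were 0.91 to 3.32 TPM for 5 basal, 4.88 to 10.6 TPM for 5 fibroblast and 0.60 to 4.87 TPM for 7 leukocyte and endothelial markers. In knockdown 10 with DHT, library 2 stood apart from libraries 1 and 3, with a chi-square per gene of 38.6 and 22.4, against 3.79 to 20.8 within the other CSS groups and 12.5 between libraries 1 and 3. In FBS, libraries 1 and 2 of each group were closer to each other (1.55 and 1.60) than to library 3 (8.89 to 9.39), above sampling noise.

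Per length, the 40 genes spanned a wide range of levels in NTC cells with vehicle. NPM1, the histone chaperone nucleophosmin, was highest at 1720 ± 57.0 TPM (SD, n = 3), followed by the small H/ACA protein gene NOP10 at 854 ± 22.1 TPM and by nucleolin (NCL) at 507 ± 13.4 TPM. MYC was at 114 ± 8.28 TPM, below the helicase gene DDX21 (126 ± 1.53 TPM) and above NOLC1 (101 ± 2.69 TPM). The lowest were TCOF1, which encodes treacle, a factor for transcription of ribosomal DNA, at 9.70 ± 0.983 TPM, and the small-subunit factor UTP20 at 11.2 ± 0.314 TPM. Reads of NPM1 may be shared with its many processed copies, and those of PPAN with the readthrough row PPAN-P2RY11, so the values of both are less certain.

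The 40 genes together took 0.570 ± 0.0174% of the counts in NTC cells with vehicle, 0.691 ± 0.0324% with DHT and 0.569 ± 0.0103% with DHT plus enzalutamide (mean ± SD, n = 3). In knockdown 10 the shares were 0.456 ± 0.00411%, 0.554 ± 0.0495% and 0.463 ± 0.00856%. In FBS they were 0.815 ± 0.0517% in NTC and 0.847 ± 0.0410% in shSIRT1 cells. Each CSS treatment thus had a lower share in the knockdown, and each cell kind its highest share with DHT. In such bulk libraries, a lower level per cell and fewer cells that express the genes cannot be told apart.

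**Figure D1:**
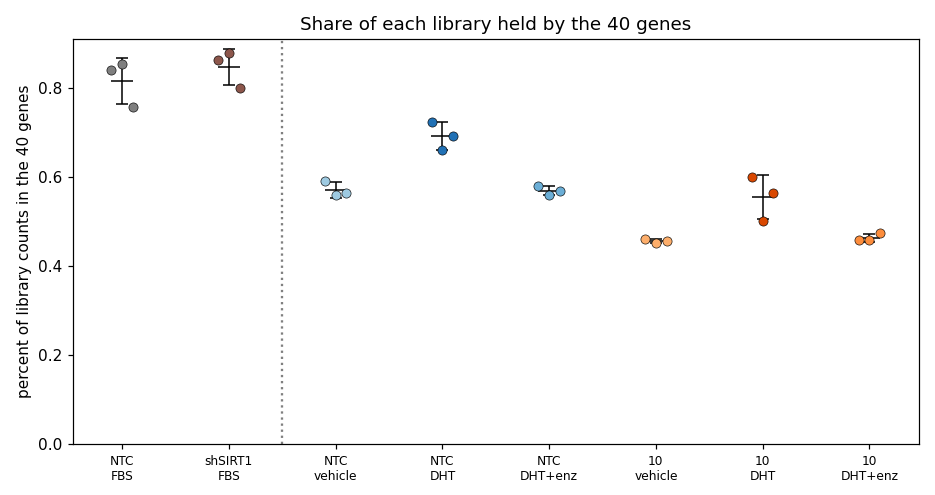
Percent of each library's counts held by the 40 genes (vertical axis) in the 8 groups (horizontal axis); points are libraries, bars the mean and SD of 3, and the dotted line parts FBS from CSS, which were counted separately. The NTC libraries with DHT lie above all NTC libraries with vehicle or DHT plus enzalutamide, and the means in the knockdown are 0.456% with vehicle and 0.554% with DHT.

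DHT in NTC cells asks which of these genes respond to androgen. Of the 40, 33 rose and 0 fell (edgeR adjusted p under 0.05), while 17.4% of the 14558 genes tested rose and 12.5% fell. The median log2 fold change was 0.36 over the 40 and -0.002 over all genes tested. TCOF1, the treacle gene, rose most, from 26.9, 27.2 and 30.6 CPM to 72.4, 66.4 and 76.8 CPM, 2.54-fold (log2 fold change 1.35, SE 0.09, adjusted p = 1.67e-08). The DHT and vehicle libraries did not overlap for 35 of the 40, the 33 called genes among them. The share of all genes tested without overlap was not counted, so this is no support beyond the calls.

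MYC rose 1.304-fold with DHT in NTC cells, from 154, 143 and 163 CPM to 203, 189.6 and 207 CPM (log2 fold change 0.38, SE 0.09, adjusted p = 0.00308). PA2G4, a nucleolar growth regulator that binds RNA, rose 1.35-fold, from 241, 217 and 226 CPM to 335, 283 and 306 CPM (adjusted p = 0.00296). The RNA polymerase I subunit genes POLR1A, POLR1B and POLR1C, the last shared with RNA polymerase III, rose as well, so that with TCOF1 all 4 genes of that role were called. The call of POLR1C was lost without NTC vehicle library 2 or 3 or NTC DHT library 1 (adjusted p 0.0586 to 0.214), with upper quartile factors (0.0826) and in a fit of these 6 libraries alone (0.0858).

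Of the 5 genes of nucleolar organisation, 4 rose with DHT in NTC cells: NCL, NOLC1 (a scaffold of small nucleolar RNA particles), the RNA helicase gene DDX21 and LYAR, a nucleolar growth regulator. LYAR rose 1.94-fold, from 14.1, 12.2 and 12.9 CPM to 28.3, 22.3 and 25.5 CPM (log2 fold change 0.96, SE 0.13, adjusted p = 2.44e-05). NPM1, the fifth, did not pass, with a log2 fold change of 0.10 (adjusted p = 0.28). Its vehicle libraries (1396, 1293 and 1231 CPM) and DHT libraries (1506, 1307 and 1396 CPM) overlapped.

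Box C/D particles place methyl groups on ribosomal RNA. All 4 of their genes rose with DHT: the methyltransferase gene FBL (fibrillarin), its core partners NOP56 and NOP58, and RRP9, a protein of the U3 particle. NOP56 went from 160.5, 160.6 and 159 CPM to 241, 227 and 238 CPM, 1.47-fold (log2 fold change 0.55, SE 0.05, adjusted p = 3.72e-07). The DHT libraries of NOP56 all lay above its vehicle libraries, which differed little.

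Box H/ACA particles convert uridine to pseudouridine, and their genes were split. DKC1, the pseudouridine synthase, rose 1.26-fold from 124, 113 and 118 CPM to 160.0, 143 and 145.5 CPM (log2 fold change 0.34, adjusted p = 0.000382), and GAR1 rose with an adjusted p under the threshold that was lost when any 1 of 4 libraries was left out (NTC vehicle 1, 2 or 3, or NTC DHT 1; adjusted p 0.0719 to 0.25). The GAR1 call was also lost with upper quartile factors (edgeR adjusted p = 0.0664) and in a fit of these 6 libraries alone (0.0575). NHP2 had a log2 fold change of 0.11 (adjusted p = 0.281). NOP10 was lower with DHT without passing, at 179, 161 and 161 CPM with vehicle and 140.1, 143 and 154 CPM with DHT (log2 fold change -0.19, adjusted p = 0.0861), and it was called lower with upper quartile factors (-0.25, adjusted p = 0.0371) or in a fit of these 6 libraries alone (-0.20, adjusted p = 0.0292).

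Of the 10 small-subunit genes, 9 rose with DHT in NTC cells, BYSL with a call that was lost without NTC vehicle library 2 or NTC DHT library 1 (adjusted p 0.0514 and 0.0992). The 9 were WDR43, HEATR1 and UTP20 of the early small-subunit processome, NOL6 of the same assembly, RRP12, BYSL and TSR1 of later maturation, the helicase gene DDX10, and NAT10, the acetyltransferase of 18S ribosomal RNA. UTP20 went from 62.0, 61.6 and 62.0 CPM to 92.4, 85.0 and 86.5 CPM, 1.42-fold (log2 fold change 0.51, SE 0.07, adjusted p = 4.66e-05). WDR3, another processome protein, had a log2 fold change of 0.16 without passing (adjusted p = 0.0647). It was called in the fit that blocks on the replicate number (log2 fold change 0.16, adjusted p = 0.0242).

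Of the 10 large-subunit genes, 7 rose with DHT: BOP1 and PES1 of the PeBoW complex, the ribosomal RNA methyltransferase gene NOP2, and the assembly factor genes NOP16, RRS1, PPAN and MRTO4. PPAN went from 30.98, 29.6 and 33.3 CPM to 44.9, 41.8 and 42.3 CPM, 1.37-fold (log2 fold change 0.46, adjusted p = 1.13e-05). RRS1 rose 1.42-fold (log2 fold change 0.51, SE 0.07, adjusted p = 1.21e-05). WDR12, the third PeBoW gene, had a log2 fold change of 0.03 (adjusted p = 0.67), the helicase gene DDX18 -0.06 (adjusted p = 0.569) and the nucleostemin gene GNL3 0.03 (adjusted p = 0.791). A difference between the PeBoW genes was not tested. IPO4, a nuclear importer, rose 1.29-fold from 72.9, 64.7 and 73.3 CPM to 93.5, 85.2 and 93.3 CPM (log2 fold change 0.37, adjusted p = 0.00334).

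**Figure D2:**
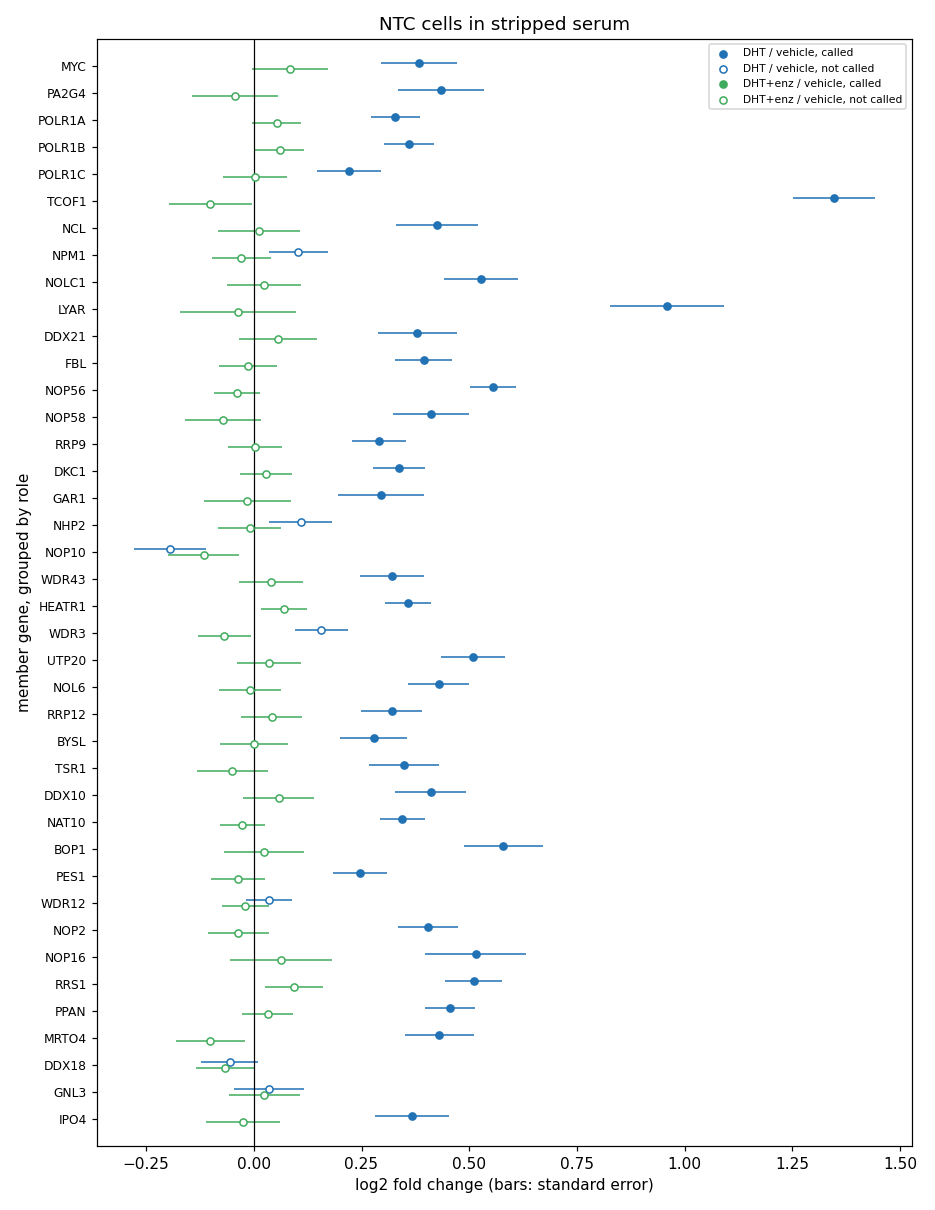
Log2 fold change (horizontal axis) of each of the 40 genes (vertical axis, grouped by role) in NTC cells, for DHT against vehicle (blue) and DHT plus enzalutamide against vehicle (green); bars are the standard error and filled points were called. The blue points are filled for 33 genes and reach 1.35 at TCOF1, and the green points run from -0.12 to 0.09 with none filled.

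In knockdown 10, DHT raised 32 of the 40 and lowered 0, against 13.3% and 8.92% of all genes tested. The median was 0.32 over the 40 and 0.0077 over all genes tested. TCOF1 rose from 17.0, 18.8 and 19.7 CPM to 38.3, 31.65 and 32.6 CPM, 1.85-fold (log2 fold change 0.89, SE 0.10, adjusted p = 4.45e-06). The lowest DHT library of TCOF1 in the knockdown was above its highest NTC vehicle library. MYC rose 1.57-fold, from 98.8, 91.6 and 105 CPM to 172.5, 128 and 163 CPM (log2 fold change 0.65, SE 0.09, adjusted p = 4.25e-05). NOP56 (1.37-fold, log2 fold change 0.46, adjusted p = 7.63e-06) and NOP2 (1.38-fold, log2 fold change 0.47, adjusted p = 0.000129) also rose, and these 4 had the lowest adjusted p of the 40. In this comparison the count was 21 with limma-trend on TPM, 19 in a fit of these 6 libraries alone and 24 to 33 with 1 library left out.

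The same 30 genes rose with DHT in both cell kinds, as did 10.1% of all genes tested, and 23 of the 30 were called in both with any 1 library left out. The 7 that were not were POLR1C, DDX21, DKC1, WDR43, BYSL, PES1 and MRTO4. How many of all genes tested kept both calls in this way was not counted. The 10 genes outside the 30 were DDX18, GAR1, GNL3, NHP2, NOP10, NPM1, RRP12, TSR1, WDR12 and WDR3. Whether the DHT change itself differed between knockdown and NTC was tested as an interaction. It passed for 0 of the 40, against 0.199% of all genes tested, with 4 at an unadjusted p under 0.05 in edgeR and 0 called by DESeq2 or limma-trend. Those 4 were TCOF1 (knockdown minus NTC -0.46, SE 0.14, adjusted p = 0.193), NOP10 (0.38, SE 0.12, adjusted p = 0.202), PPAN (-0.19, SE 0.08, adjusted p = 0.408) and MYC (0.27, SE 0.13, adjusted p = 0.441). In the fit that blocks on the replicate number 1 was called, TCOF1 (-0.46, adjusted p = 0.0437). That fit called 427 of all 14558 genes tested, far more than the fit without the block.

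Enzalutamide added to DHT asks which genes the antagonist returns. The DHT libraries of each cell kind are those already set against vehicle. A rise with DHT and a fall with enzalutamide are thus not independent results. In NTC cells 34 of the 40 fell and 0 rose, against 16.6% and 12.6% of all genes tested, with a median of -0.34 over the 40 and 0.0079 over all genes tested. TCOF1 fell 2.73-fold, to 23.0, 27.55 and 28.5 CPM (log2 fold change -1.45, SE 0.09, adjusted p = 4.51e-09). LYAR fell 1.99-fold, to 12.9, 12.2 and 13.1 CPM (log2 fold change -0.99, adjusted p = 1.49e-05). These values were near the vehicle levels of both genes. NOP56 (log2 fold change -0.59, adjusted p = 1.24e-07) and PPAN (-0.42, adjusted p = 2.41e-05) also fell, and these 4 had the lowest adjusted p of the 40.

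MYC fell 1.23-fold with enzalutamide in NTC cells, to 156, 161.5 and 170.2 CPM (log2 fold change -0.30, SE 0.09, adjusted p = 0.0158). This call was lost with limma-trend (adjusted p = 0.078) and without DHT library 1 or 3 or DHT plus enzalutamide library 1 or 2 (adjusted p 0.0501 to 0.0637). The 6 genes that did not pass were NPM1, NHP2, NOP10, WDR12, DDX18 and GNL3. Of these, NPM1 was called with the replicate number as a block (log2 fold change -0.13, adjusted p = 0.0416).

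In knockdown 10, enzalutamide lowered 28 of the 40 and raised 0, against 12.2% and 8.08% of all genes tested, with a median of -0.28 over the 40 and -0.0031 over all genes tested. MYC fell 1.59-fold, to 92.4, 94.4 and 105 CPM (log2 fold change -0.66, SE 0.09, adjusted p = 3.59e-05). TCOF1 fell 1.99-fold, to 15.25, 17.9 and 18.3 CPM (log2 fold change -0.99, adjusted p = 1.13e-06). Both genes were lower in all 3 libraries than in any DHT library. NOP56 (-0.44, adjusted p = 1.05e-05) and NOP2 (-0.42, adjusted p = 0.000399) also fell. The count was 15 in a fit of these 6 libraries alone and 14 without DHT library 1. With the replicate number as a block, POLR1C, NPM1, HEATR1, TSR1 and MRTO4 were also called lower (adjusted p 0.00612 to 0.0479).

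The enzalutamide change differed between the cell kinds for 0 of the 40, against 0.35% of all genes tested, with 4 at an unadjusted p under 0.05 in edgeR and 0 called by DESeq2 or limma-trend. For MYC the difference, knockdown minus NTC, was -0.37 (SE 0.13, adjusted p = 0.217), and for TCOF1 it was 0.46 (SE 0.14, adjusted p = 0.15). NOP10 was at -0.33 (adjusted p = 0.229) and MRTO4 at 0.30 (adjusted p = 0.272). Without knockdown DHT library 2, the library that stood apart, the MYC difference was called (-0.48, adjusted p = 0.0242). In the fit with the block 2 were called, MYC (-0.36, adjusted p = 0.0269) and TCOF1 (0.46, adjusted p = 0.0379). That fit called 573 of all 14558 genes tested, far more than the fit without the block.

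DHT plus enzalutamide was then set against vehicle. In NTC cells 0 of the 40 were called in edgeR, as were 0% of all genes tested, 0 of the 40 had an unadjusted p under 0.05, and DESeq2 and limma-trend called 0. The log2 fold changes lay between -0.12 (NOP10) and 0.09 (RRS1), with standard errors of 0.05 to 0.13, and MYC was at 0.08 (SE 0.09, adjusted p = 1). In knockdown 10, 0 of the 40 were called, against 0.00687% of all genes tested, with 2 at an unadjusted p under 0.05 (HEATR1 and NOP16) and 0 in DESeq2 and limma-trend. The changes ran from -0.11 (TCOF1) to 0.31 (NOP16), and MYC was at -0.01 (SE 0.09, adjusted p = 1). Smaller differences than these standard errors allow were not detectable.

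**Figure D3:**
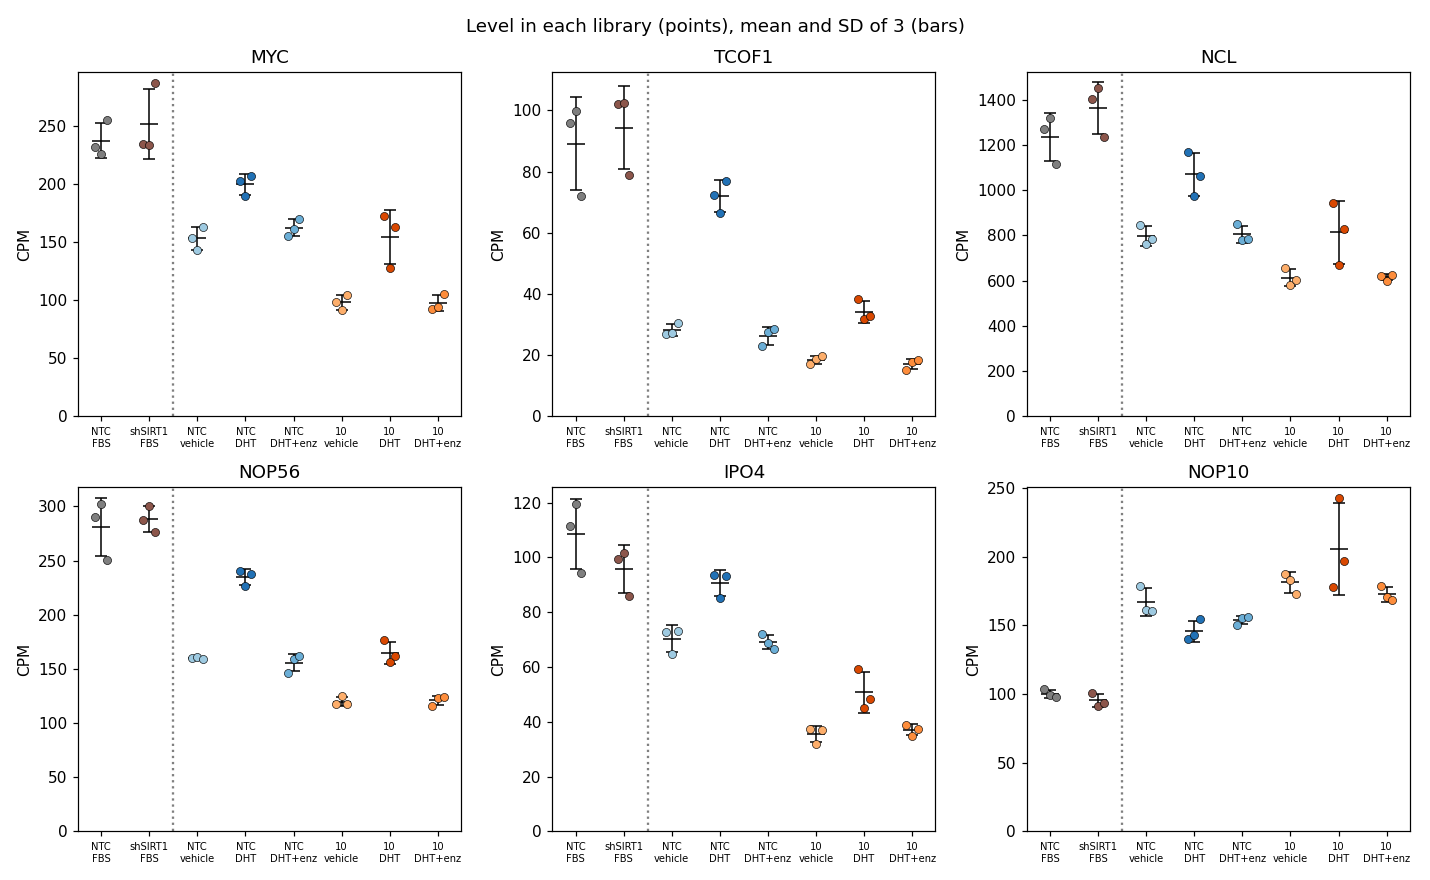
Level in CPM (vertical axis, from 0) of 6 of the genes in each library (points) of the 8 groups (horizontal axis), with the mean and SD of 3; the dotted line parts FBS from CSS, whose levels were scaled separately. MYC, TCOF1, NCL and NOP56 are highest with DHT within each cell kind in CSS, IPO4 is lower in every knockdown library in CSS than in any NTC library there, and NOP10 has its highest CSS library, 243 CPM, in the knockdown with DHT.

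Knockdown 10 against NTC asks how the same genes differ where SIRT1 is reduced. With vehicle, 33 of the 40 were lower and 0 higher in the knockdown, against 19.1% and 15.5% of all genes tested. The median was -0.38 over the 40 and -0.0045 over all genes tested. IPO4 fell 1.98-fold, from 72.9, 64.7 and 73.3 CPM in NTC to 37.3, 32.1 and 36.9 CPM in the knockdown (log2 fold change -0.99, SE 0.09, adjusted p = 2.58e-07). MYC fell 1.56-fold, from 154, 143 and 163 CPM to 98.8, 91.6 and 105 CPM (log2 fold change -0.64, SE 0.09, adjusted p = 2.68e-05). The libraries of the 2 cell kinds did not overlap for 38 of the 40, the 33 called genes among them. As the share of all genes tested without overlap was not counted, this too is no support beyond the calls.

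By role, PA2G4 fell along with MYC, as did 3 of 4 RNA polymerase I genes. TCOF1 fell 1.53-fold, from 26.9, 27.2 and 30.6 CPM to 17.0, 18.8 and 19.7 CPM (log2 fold change -0.61, adjusted p = 0.000111). POLR1A, the largest RNA polymerase I subunit, was at 65.0 ± 3.21 and 61.3 ± 0.252 CPM (mean ± SD, n = 3; log2 fold change -0.09, adjusted p = 0.27). All 5 nucleolar organisation genes fell, with NPM1 going from 1396, 1293 and 1231 CPM to 1042, 1036 and 1019 CPM (1.27-fold, adjusted p = 0.000913). NOLC1 passed only narrowly (adjusted p = 0.0448) and was lost without any 1 of the 6 libraries compared (adjusted p 0.0684 to 0.168).

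All 4 box C/D genes fell, NOP56 from 160.5, 160.6 and 159 CPM to 117, 125 and 118 CPM (1.34-fold, log2 fold change -0.42, adjusted p = 1.15e-05). Of the H/ACA genes, DKC1 fell 1.29-fold, from 124, 113 and 118 CPM to 88.7, 91.3 and 95.7 CPM (adjusted p = 0.000168), and NHP2 fell (log2 fold change -0.42, adjusted p = 0.000255). GAR1 (-0.18, adjusted p = 0.191) and NOP10 (0.12, adjusted p = 0.282) did not pass.

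Of 10 small-subunit genes 8 fell. HEATR1, a scaffold of the processome, went from 103, 106 and 106 CPM to 69.3, 74.8 and 74.4 CPM, 1.44-fold (log2 fold change -0.53, SE 0.05, adjusted p = 1.17e-06). WDR43 (-0.19, adjusted p = 0.0543) and RRP12 (-0.16, adjusted p = 0.0902) did not pass, and WDR43 was called with the replicate number as a block (adjusted p = 0.0275). Of 10 large-subunit genes 8 fell, NOP2 from 66.4, 61.4 and 67.2 CPM to 42.0, 46.55 and 44.5 CPM (1.47-fold, log2 fold change -0.55, adjusted p = 1.15e-05). The other 2, DDX18 and GNL3, had log2 fold changes of 0.17 (adjusted p = 0.0603) and -0.10 (adjusted p = 0.359). DDX18 was called higher with the block (0.17, adjusted p = 0.0201) and by DESeq2 (0.17, adjusted p = 0.0439).

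Under DHT, 36 of the 40 were lower in the knockdown and 1 was higher, against 23.5% and 19.5% of all genes tested, with a median of -0.39 over the 40 and -0.0016 over all genes tested. TCOF1 fell 2.10-fold, from 72.4, 66.4 and 76.8 CPM in NTC to 38.3, 31.65 and 32.6 CPM (log2 fold change -1.07, SE 0.09, adjusted p = 1.13e-07). HEATR1 (-0.57, adjusted p = 2.59e-07), NOP56 (-0.51, adjusted p = 6.57e-07) and PPAN (-0.57, adjusted p = 6.60e-07) came next by adjusted p. MYC fell 1.29-fold (-0.37, SE 0.09, adjusted p = 0.00246), and its DHT libraries were at 203, 189.6 and 207 CPM in NTC and 172.5, 128 and 163 CPM in the knockdown. The 128 CPM belongs to knockdown library 2, which stood apart. Without that library the log2 fold change of MYC was -0.25 (edgeR adjusted p = 0.0117). PA2G4 was called although its libraries overlapped.

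NOP10 was the 1 gene that was higher in the knockdown under DHT. It was at 140.1, 143 and 154 CPM in NTC and 178, 243 and 197 CPM in the knockdown cells, a log2 fold change of 0.50 or 1.41-fold (SE 0.08, adjusted p = 0.000108). The value of 243 CPM belongs to library 2, which stood apart, and without that library the log2 fold change was 0.37 (adjusted p = 0.000205). Its transcript is short, and on the TPM scale, which takes length into account, limma-trend gave 0.41 (adjusted p = 6.96e-05). POLR1A, DDX18 and GNL3 did not pass.

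With DHT plus enzalutamide, 32 were lower and 0 higher in the knockdown, against 19.2% and 15.4% of all genes tested, with a median of -0.35 over the 40 and 0.0019 over all genes tested. IPO4 fell 1.86-fold (log2 fold change -0.90, SE 0.09, adjusted p = 7.2e-07). MYC fell 1.67-fold, from 156, 161.5 and 170.2 CPM to 92.4, 94.4 and 105 CPM (-0.74, SE 0.09, adjusted p = 6.75e-06), and HEATR1 (-0.42, adjusted p = 1.28e-05) and PPAN (-0.43, adjusted p = 2.77e-05) also fell. NOLC1 and RRP12, which did not pass (adjusted p = 0.0523 and 0.0546), were called lower with the replicate number as a block (adjusted p = 0.00349 and 0.0403), and DDX18 higher (0.16, adjusted p = 0.0241).

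Across the 3 treatments, which use different libraries, the same 31 genes were lower in the knockdown each time, as were 14% of all genes tested. With any 1 library left out, 24 of the 31 were called in all 3 treatments, and PA2G4, POLR1C, NPM1, TSR1, NAT10, NOP16 and MRTO4 were not. How many of all genes tested kept all 3 calls in this way was not counted. For NAT10 the call with DHT plus enzalutamide was lost without any 1 of the 6 libraries compared (adjusted p 0.0569 to 0.216), and for TSR1 likewise (0.0585 to 0.126). The 9 genes outside the 31 were DDX18, GAR1, GNL3, NOLC1, NOP10, POLR1A, RRP12, WDR3 and WDR43. POLR1A was called with DHT and with enzalutamide in both cell kinds (log2 fold changes 0.33 and 0.32 with DHT, -0.28 and -0.23 with enzalutamide) and not between the cell kinds in any treatment. NHP2 and WDR12 were lower in the knockdown in all 3 treatments (NHP2 -0.42, -0.40 and -0.44) and were called in none of the DHT or enzalutamide comparisons. A difference between these genes was not tested.

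**Figure D4:**
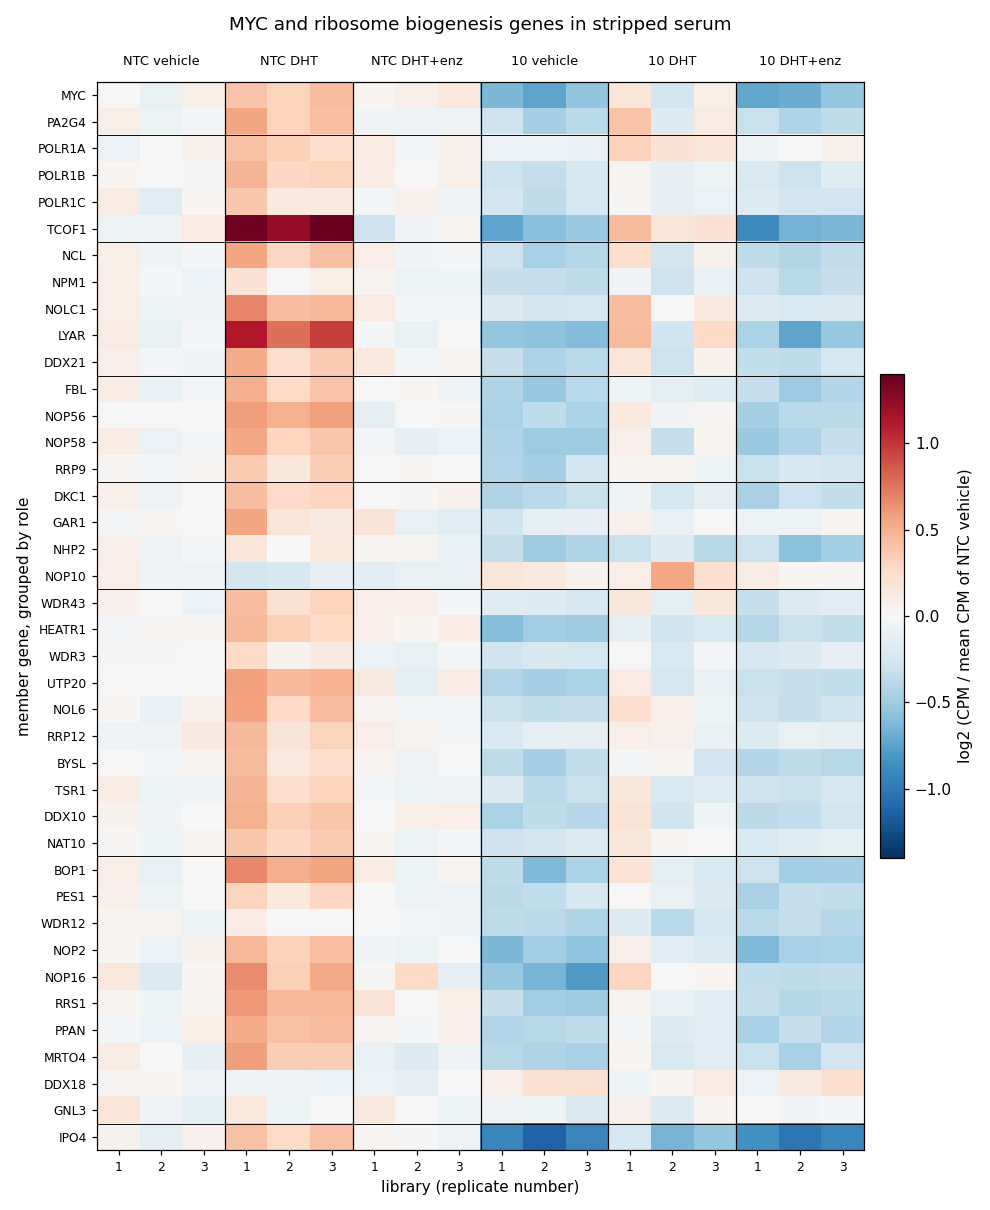
Log2 ratio of each CSS library's CPM to the mean CPM of the 3 NTC vehicle libraries (colour) for the 40 genes (rows, grouped by role) and 18 libraries (columns, replicate number below). NTC libraries with DHT are red for most genes, knockdown libraries with vehicle or DHT plus enzalutamide are blue for most genes, with NOP10 above the reference in all 3 libraries of both groups.

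In FBS, shSIRT1 against NTC gave another picture. Of the 40 genes, 0 were called in edgeR, against 2.71% of the 14329 genes tested, 2 had an unadjusted p under 0.05, and DESeq2 and limma-trend called 0. The log2 fold changes ran from -0.24 (BYSL) to 0.14 (NCL), with a median of 0.016 over the 40 and 0.0055 over all genes tested. MYC was at 232, 226 and 255 CPM in NTC and at 235, 234 and 287 CPM in shSIRT1 cells (log2 fold change 0.08, SE 0.09, adjusted p = 0.68). IPO4 was at 111.5, 119 and 94.4 CPM in NTC and 99.6, 102 and 85.8 CPM in shSIRT1 cells (-0.18, SE 0.10, adjusted p = 0.391). The libraries of both genes overlapped.

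With the replicate number as a block, 5 of the 40 were called in FBS, a share near the 11.7% of all genes tested that were called in that fit. NCL (0.14, adjusted p = 0.0199) and NPM1 (0.13, adjusted p = 0.0237) were higher, and BYSL (-0.24, adjusted p = 0.0426), PES1 (-0.20, adjusted p = 0.0238) and IPO4 (-0.18, adjusted p = 0.0303) were lower in shSIRT1 cells. Without NTC library 3, 3 were called lower: BOP1 (-0.31), PES1 (-0.28) and PPAN (-0.30), while 6.41% of all genes tested were called, a share also near that of the 40. Standard errors over the 40 were 0.05 to 0.14 in FBS, and their median was 0.087 there and 0.075 for the knockdown in CSS with vehicle.

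The difference of the knockdown changes, CSS with vehicle minus FBS, was fitted over those 12 libraries. It passed for 18 of the 40, all lower in CSS, against 6.29% of the 15345 genes tested lower and 7.47% higher, with a median of -0.33 over the 40 and 0.032 over all genes tested. The lowest adjusted p values were those of MYC (-0.68, SE 0.12, adjusted p = 0.00167), IPO4 (-0.77, SE 0.13, adjusted p = 0.00181), WDR12 (-0.43, SE 0.08, adjusted p = 0.0019) and HEATR1 (-0.38, SE 0.07, adjusted p = 0.00207). The 18 included all 4 box C/D genes (FBL, NOP56, NOP58, RRP9), 3 of 5 genes of nucleolar organisation (NCL, NPM1, DDX21), DKC1 and NHP2, POLR1B and TCOF1, WDR3, DDX10 and NOP2. The set of libraries with its depth and effective lengths, the medium and the knockdown line all change together here and cannot be told apart. SIRT1 itself had a log2 fold change of -2.24 in FBS and of -1.55 in CSS with vehicle, and this difference passed the same test (0.73, adjusted p = 0.00156).

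**Figure D5:**
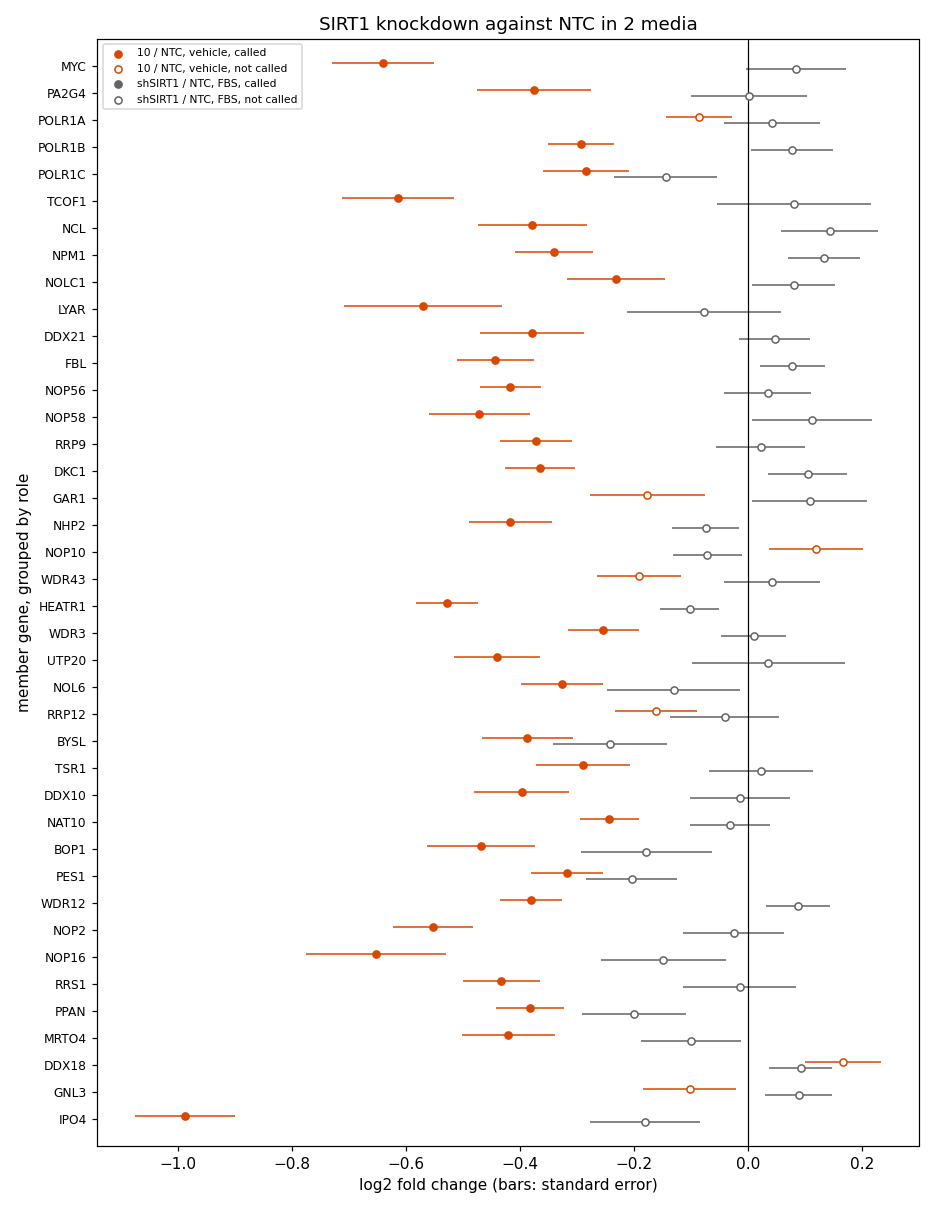
Log2 fold change of knockdown against NTC (horizontal axis) for each of the 40 genes (vertical axis, grouped by role) in CSS with vehicle (knockdown 10, orange) and in FBS (shSIRT1, grey); bars are the standard error and filled points were called. The orange points are filled for 33 genes and reach -0.99 at IPO4, and the grey points run from -0.24 to 0.14 with none filled.

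Other genes of the pathway, listed by their function in textbooks but with earlier results of these data known, were counted in the same fits. The lists of MYC network genes, MYC targets and proliferation markers below were chosen with the same knowledge. Of 94 further ribosome biogenesis genes, 52 rose and 1 fell with DHT in NTC cells (median log2 fold change 0.22). Of all genes tested, 17.4% rose and 12.5% fell. In the knockdown with vehicle, 1 of the 94 rose and 49 fell (median -0.20), against 15.5% and 19.1% of all genes tested. The 1 that fell with DHT was POLR1D, a subunit shared by RNA polymerases I and III (-0.27, adjusted p = 0.000825), and the 1 that was higher in the knockdown was NVL, a large-subunit ATPase (0.24, adjusted p = 0.0247). The shares called in these 94 were lower than in the 40, and the difference of the shares was not tested. In FBS, 1 rose (NMD3, an export adaptor of the large subunit, 0.46, adjusted p = 0.0151) and 0 fell. This share lay below the 2.71% of all genes tested that were called there in either direction.

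Of 17 tested genes of the MYC network, which holds MAX, its other partners and MYC cofactors, 6 rose and 2 fell with DHT in NTC cells, against 17.4% and 12.5% of all genes tested, and 2 rose and 6 fell in the knockdown with vehicle, against 15.5% and 19.1%. The 2 that moved the other way in each comparison were a share below that of all genes tested. Of the 17 network genes, MXD3 rose with DHT (log2 fold change 1.31, adjusted p = 0.00037). In the knockdown, MLXIP was higher (0.45, adjusted p = 1.36e-06) and MYCL1 lower (-0.65, adjusted p = 2.94e-05). MYCN was at 0 counts in 7 of the 8 groups and at 0.0119 ± 0.0206 CPM in NTC cells with DHT plus enzalutamide. Of 16 MYC targets outside the nucleolus, 8 rose and 0 fell with DHT in NTC cells, led by CAD, a pyrimidine synthesis enzyme (0.58, adjusted p = 3.34e-05), and 10 fell and 0 rose in the knockdown with vehicle, led by APEX1, a DNA repair endonuclease (-0.55, adjusted p = 7.19e-08).

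Proliferation markers moved with the 40 genes. All 10 (MKI67 among them) rose with DHT in NTC cells (median log2 fold change 1.53) and in the knockdown (1.36), all 10 fell with enzalutamide (-1.87 and -1.53), and all 10 were lower in the knockdown with vehicle (-1.19), DHT (-1.44) and DHT plus enzalutamide (-1.10). Of all genes tested, 17.4% rose with DHT in NTC cells and 13.3% in the knockdown, and 16.6% and 12.2% fell with enzalutamide. The shares lower in the knockdown were 19.1% with vehicle, 23.5% with DHT and 19.2% with DHT plus enzalutamide. In FBS 0 of the 10 were called (median 0.096), against 2.71% of all genes tested. MKI67 was at 47.9 ± 9.23 CPM with vehicle and 196.7 ± 24.5 CPM with DHT in NTC cells, and at 13.5 ± 1.27 and 63.0 ± 12.8 CPM in the knockdown (mean ± SD, n = 3). The part of cell proliferation in the changes of the 40 genes was not tested.

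The changes were also set out by presence of the E-box. In the knockdown with vehicle, the 16 genes with CACGTG in their window had a median log2 fold change of -0.375 (12 called lower) and the 16 with a window but without it -0.376 (15 called lower). With DHT in NTC cells the medians were 0.356 (14 called higher) and 0.354 (12 called higher). These are descriptions of the windows in the table, and no test was made of them.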

How the data were processed

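RNA from 24 LNCaP libraries was measured by RNA sequencing. Per the labels' protocols, TRIzol-extracted RNA went into a stranded mRNA kit. Per the submitters' processing notes, CASAVA 1.8.2 and RSEM 1.2.31 were used with hg19, and the aligner is not given in the sources used here. The deposited files hold RSEM expected counts, TPM and FPKM per gene symbol, and FPKM was not used. Expected counts were rounded, and two-sided quasi-likelihood F tests were run in edgeR 4.0.16 (R 4.3.3; filterByExpr by group, TMM factors, groups as the design), with Benjamini-Hochberg adjustment over all genes tested and a call under 0.05. FBS (6 libraries, 14329 genes) and CSS (18 libraries, 14558 genes) were fitted apart. A fit of 12 libraries (15345 genes) gave only the difference between knockdown changes. CPM used TMM-scaled totals within a set. RSEM shortened transcripts to effective lengths by 50 bases in FBS and by 224 to 252 bases in CSS. There were 13 comparisons and 1 added after seeing the data, with no adjustment across them.

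The alternatives were other scalings, no filter, DESeq2 1.42.0, limma-trend (limma 3.58.1) on log2 of the deposited TPM plus 1, a replicate block, fewer or more groups in the fit, and each library left out. The scripts were tested on simulated data. The members and lists were chosen with earlier results of these data known. Every member was named with its role, MYC was given in each comparison, and values were given for up to 4 called members per direction with the lowest adjusted p and for the member with the lowest adjusted p of each role for DHT in NTC and the knockdown with vehicle. Promoter windows came from RefSeq (GRCh38.p14), since no hg19 coordinates were used here. Some luminal markers and a searched motif are not reported here. Same-numbered libraries deviated together: over 0.1 in all 3 pairs in FBS (0.142 to 0.349) and in 37 of 45 in CSS (median correlation 0.167, against -0.125 for different numbers), and the labels do not say what a number marks.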

Additional observations from a re-analysis of the deposited data

Results flagged for a closer look

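For 18 genes, the change between knockdown and NTC differed between CSS with vehicle and FBS by the test of the difference itself in edgeR. As log2 differences, CSS minus FBS, these were -0.7655 for IPO4, -0.6823 for MYC, -0.6537 for TCOF1, -0.5419 for NOP58, -0.4862 for NOP2, -0.4792 for NCL, -0.4785 for FBL and -0.4316 for NPM1. They were -0.4279 for DKC1, -0.427 for WDR12, -0.4104 for NOP56, -0.384 for DDX21, -0.3837 for HEATR1 and -0.3523 for RRP9. The smallest were -0.3415 for DDX10, -0.3282 for POLR1B, -0.3005 for NHP2 and -0.2216 for WDR3. All 10 proliferation markers differed in the same direction (median -1.24), while 6.29% of all genes tested were called lower. The depth and effective lengths of the libraries, the medium and the knockdown line change together between the sets and cannot be told apart.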

How the results depend on the processing

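No called gene changed sign under any alternative of a planned comparison. The count in FBS was 0 under the other scalings, no filter, DESeq2, limma-trend, all 24 libraries and libraries 1 and 2 summed, 5 with the replicate block, and 0 to 3 with 1 library left out (3 without NTC library 3). DHT in the knockdown gave 21 with limma-trend on TPM, 19 with only the groups compared and 24 to 33 with 1 library left out. Enzalutamide in the knockdown gave 15 with only the groups compared and 14 to 32 with 1 library left out (14 without DHT library 1). The interaction with enzalutamide gave 0 to 1 with 1 library left out (1, MYC, without knockdown DHT library 2). With 1 library left out, the ranges were 30 to 34 for DHT and 26 to 34 for enzalutamide in NTC cells, 31 to 33, 33 to 37 and 26 to 29 for the knockdown with vehicle, DHT and DHT plus enzalutamide, and 13 to 23 for the difference between CSS and FBS. The cause of these shifts was not tested, and the fits with a library left out or with only the groups compared hold fewer libraries.

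With the replicate number as a block, the interaction with DHT gave 1 (TCOF1, -0.46, adjusted p = 0.0437) and the interaction with enzalutamide 2 (MYC, -0.36, adjusted p = 0.0269, and TCOF1, 0.46, adjusted p = 0.0379). Of all 14558 genes tested, 427 and 573 were called for these interactions with the block. Same-numbered pairs did not all exceed a correlation of 0.1 for the knockdown under DHT or for DHT in the knockdown. Nor did they for DHT plus enzalutamide against vehicle in NTC cells (lowest 0.096) or for the added comparison (lowest 0.004). The block also moved the FBS count, from 0 to 5. Outside FBS and the interactions it moved counts by less than 1.5 times. They became 33 to 37 in the DHT, enzalutamide and knockdown comparisons in CSS and 25 for the difference between CSS and FBS.

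Small MYC changes that were not called reversed. In FBS the log2 fold change was -0.0186 without shSIRT1 library 3 and reached 0.138 without NTC library 3. For DHT plus enzalutamide against vehicle in the knockdown it was 0.0294 without vehicle library 3, and 0.0215 or 0.0072 without DHT plus enzalutamide library 1 or 2, with a lowest value of -0.0813 without library 3 of that group. For the added comparison of DHT-treated knockdown with NTC vehicle, MYC was at -0.0254 with upper quartile factors, -0.0074 with library totals only, -0.0103 with limma-trend, -0.0049 with only the groups compared, and -0.0382, -0.0872 and -0.0418 without NTC vehicle library 2, knockdown DHT library 1 and knockdown DHT library 3, and reached 0.1304 without knockdown DHT library 2. Its count was 4 with limma-trend and 6 to 11 with 1 library left out (11 without knockdown DHT library 1).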

Other observations

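The DHT-treated knockdown was set against NTC with vehicle, a comparison added after the data were seen. MYC was at 172.5, 128 and 163 CPM in the former and 154, 143 and 163 CPM in the latter (edgeR log2 fold change 0.01, SE 0.09, adjusted p = 0.94), and NCL at 814 ± 139 and 797 ± 44.0 CPM (mean ± SD, n = 3; 0.03, adjusted p = 0.832). Of the 40 genes 7 were called, 3 higher and 4 lower, against 18.4% and 17.2% of all genes tested, with a median of -0.038 over the 40 and 0.017 over all genes tested. NOP10 (0.30, adjusted p = 0.00831, libraries overlapping), TCOF1 (0.27, adjusted p = 0.0337) and POLR1A (0.23, adjusted p = 0.00508) were higher. The TCOF1 call was lost with upper quartile factors (adjusted p 0.0556), library totals only (0.057), limma-trend (0.168), only the groups compared (0.0622), and without NTC vehicle library 1 or 2 (0.109 and 0.105) or knockdown DHT library 1 (log2 fold change 0.17, adjusted p = 0.189). The POLR1A call was lost with limma-trend (adjusted p 0.0662) and the NOP10 call with only the groups compared (adjusted p 0.0735). IPO4 (-0.47, adjusted p = 0.000474), NHP2 (-0.29, adjusted p = 0.0045), WDR12 (-0.26, adjusted p = 0.00119) and HEATR1 (-0.21, adjusted p = 0.00629) were lower. A p that misses the threshold does not show that the other 33 genes had equal levels.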
